A study of Mus musculus with 4 samples.

Results

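The interferon-induced transmembrane (*Ifitm*) genes encode small membrane proteins that share the CD225 domain. *Ifitm1*, *Ifitm2* and *Ifitm3* are classical interferon-stimulated genes whose products hinder the fusion of enveloped viruses with the cell's membranes, *Ifitm3* from endosomes and *Ifitm1* mainly from the cell surface. *Ifitm5* is known for its role in osteoblasts and bone formation, and the roles of *Ifitm6*, *Ifitm7* and *Ifitm10* are less well described. All 7 mouse genes of these names were taken by symbol from the 24322 genes of each expression file. They were taken up because earlier results of these data had shown lower *Ifitm2* in the mutant cells, so the members were selected on the FPKM difference between genotypes, which is given here as a description with no test.

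The RNA came from cells positive for mTFP, a teal fluorescent protein, sorted by FACS from the retina of single mice, 4 mice in all. Every mouse carried *Rlbp1-CreERT2*, a tamoxifen-dependent Cre recombinase driven by a promoter fragment of the Müller glial gene *Rlbp1*, and *R26-CAG-LoxP-mTFP1*, a reporter that Cre switches on, and tamoxifen was injected at P4 and the retina taken at P14 in every case. The 2 control mice, numbers 7984 and 3911, had 1 floxed and 1 wild-type *Rax* allele, and the 2 *Rax* iCKO mice, numbers 7983 and 3914, had 2 floxed alleles. *Rax* encodes a paired-type homeodomain protein of the retina. The labels give the strain as 129S6, the methods report that the Cre line was made in B6C3F1 and backcrossed to 129 Sv/Ev, and the study saw recombination in the pigment epithelium as well as in Müller glia.

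Expression is in FPKM, fragments scaled to transcript length and to the mapped reads of the library, so levels of different genes are compared per length. The libraries held an estimated 9250000 to 12700000 mapped reads. *Rax* was at 189 and 181 FPKM in the controls and at 111 and 98.4 FPKM in *Rax* iCKO, so the transcript was still present in the libraries labelled *Rax* iCKO. *Xist*, which coats the inactive X, had 24.5 and 21.2 FPKM in the controls and 0.0119 and 0.00605 FPKM in *Rax* iCKO, so sex-linked RNA differed with genotype and the 2 cannot be told apart. *Ddx3y*, a Y-linked gene, was above 0 FPKM only in *Rax* iCKO mouse 7983, at 12.4 FPKM. The Müller glial markers *Rlbp1*, *Glul* and *Slc1a3* were each at 618 FPKM or more in every library. Microglial markers differed between the *Rax* iCKO libraries: the 10 genes summed to 42.8 and 45.5 FPKM in controls 7984 and 3911, to 76.8 FPKM in *Rax* iCKO 7983 and to 9.97 FPKM in *Rax* iCKO 3914. The neutrophil genes *Ngp*, *Camp* and *Retnlg* were above 0 only in control 7984, with 1 fitted read each.

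*Ifitm2* and *Ifitm3* lie in 1 cluster on chromosome 7 with *Ifitm1*, *Ifitm5* and *Ifitm6* (mm10, RefSeq GRCm38.p6). *Ifitm5* is at chr7:140948958-140950243, *Ifitm2* at chr7:140954837-140959686, *Ifitm1* at chr7:140967429-140969827, *Ifitm3* at chr7:141009590-141010744 and *Ifitm6* at chr7:141015812-141016892. *Ifitm10* lies apart on the same chromosome, at chr7:142325835-142373779, and *Ifitm7* is at chr16:13981702-13986867. The RefSeq span of *Ifitm2* reaches further upstream than the start used for its promoter window, so the stretch printed for it lies within that span. The 250 bases before the window's start of *Ifitm2* and of *Ifitm3* are shown because they are the 2 most abundant members, and the level of *Ifitm2* was lower in *Rax* iCKO while that of *Ifitm3* overlapped between genotypes. Both are on the minus strand, *Ifitm2* at chr7:140955962-140956211 and *Ifitm3* at chr7:141010745-141010994, and are printed 5′ to 3′ in the direction of the gene. Capitals mark matches to GAAANNGAA, the core of an interferon-stimulated response element, and to TAATT, a core bound by many homeodomain proteins, both searched on both strands.
Ifitm2: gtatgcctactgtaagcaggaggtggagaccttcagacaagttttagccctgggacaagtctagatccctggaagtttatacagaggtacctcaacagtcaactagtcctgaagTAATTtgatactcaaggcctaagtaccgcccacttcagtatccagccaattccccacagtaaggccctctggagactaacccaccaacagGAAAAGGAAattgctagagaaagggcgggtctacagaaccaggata
Ifitm3: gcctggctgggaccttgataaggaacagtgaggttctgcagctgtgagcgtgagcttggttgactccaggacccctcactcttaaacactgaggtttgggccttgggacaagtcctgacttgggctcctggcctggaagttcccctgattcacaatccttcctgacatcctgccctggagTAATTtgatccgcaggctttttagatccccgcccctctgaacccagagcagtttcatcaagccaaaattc

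In *Ifitm2* the GAAANNGAA match began 46 bases before the start and TAATT 136 bases before it. In *Ifitm3* TAATT began 70 bases before the start, and the 2 GAAANNGAA matches, gaaaaggaa and gaaaccgaa, fell after it, beginning at bases 3 and 20 of the transcript. The 9 letters of the *Ifitm2* match, gaaaaggaa, were therefore also those of the first *Ifitm3* match. Of all 32851 RefSeq windows, 7.13% held GAAANNGAA in the 250 bases before the start and 25% held TAATT there, and 2.35% held both as *Ifitm2* did. The upstream stretches of the 2 genes shared 3 exact runs of at least 10 bases, and 1 of these, agtaatttgat, contained the TAATT. That run of 11 bases was in 8 of the 32851 upstream windows. TTCNNNGAA, the core of a STAT-bound interferon-gamma-activated site, was not in the 250 bases before *Ifitm2* or *Ifitm3*. It was in those of *Ifitm6*, and in 7.02% of all windows, and a match beginning at base 14 of the *Ifitm3* transcript overlapped the second GAAANNGAA there. All 7 members matched a RefSeq window, 3 of them for *Ifitm10*, and no other member held GAAANNGAA before its start. TAATT was also found 86 bases before the start of *Ifitm5*, and 223 and 220 bases before that of 1 *Ifitm10* window. These matches are letters in the reference and no binding was measured.

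*Ifitm2* was the most abundant member in every library and was lower in *Rax* iCKO. Its level was 46.1 and 49.9 FPKM in controls 7984 and 3911, and 19.9 FPKM in both *Rax* iCKO libraries. Both controls thus lay above both *Rax* iCKO libraries, with no overlap. The means were 48.0 ± 2.65 FPKM (SD, n = 2) and 19.9 ± 0.0117 FPKM (SD, n = 2), a ratio of 0.415 of *Rax* iCKO to control. On the log2(FPKM + 1) scale the difference was -1.23 with an SE of 0.20 from the limma fit over all genes. Taking the mice close in number together, the difference was -1.17 for mouse 7983 against 7984 and -1.28 for mouse 3914 against 3911. From the depth and the transcript length, *Ifitm2*, which lay beyond the 120 reads searched for whole numbers, rested on about 267 and 210 reads in the controls and about 85 and 84 in *Rax* iCKO, and the ratio of reads corrected for depth was 0.416 (95% counting interval 0.347 to 0.497). Among all genes by level, *Ifitm2* ranked 2343 and 2321 in the controls and 4739 and 4731 in *Rax* iCKO.

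*Ifitm3* did not follow *Ifitm2*. It was at 8.62 and 11.1 FPKM in controls 7984 and 3911 and at 10.7 and 13.0 FPKM in *Rax* iCKO 7983 and 3914. The groups overlapped, since control 3911 was above *Rax* iCKO 7983. The means were 9.86 ± 1.75 and 11.8 ± 1.63 FPKM (SD, n = 2 each), a ratio of 1.20, and the difference on the log2(FPKM + 1) scale was 0.24 with an SE of 0.25. The smallest read numbers that fit its values were 49, 46, 45 and 54 in the same order, and the read ratio was 1.22 (95% counting interval 0.914 to 1.64).

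*Ifitm10* was the third most abundant member, at 2.72 and 3.20 FPKM in controls 7984 and 3911 and at 3.56 and 3.58 FPKM in *Rax* iCKO. The *Rax* iCKO libraries were both above the controls, by a ratio of 1.21, with a log2 difference of 0.21 (SE 0.26) that was smaller than its error. Its lowest fitting numbers of reads lay between 90 and 105, for a read ratio of 1.22 (95% counting interval 0.999 to 1.5). The absence of overlap was lost with quantile normalization.

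**Figure D1:**
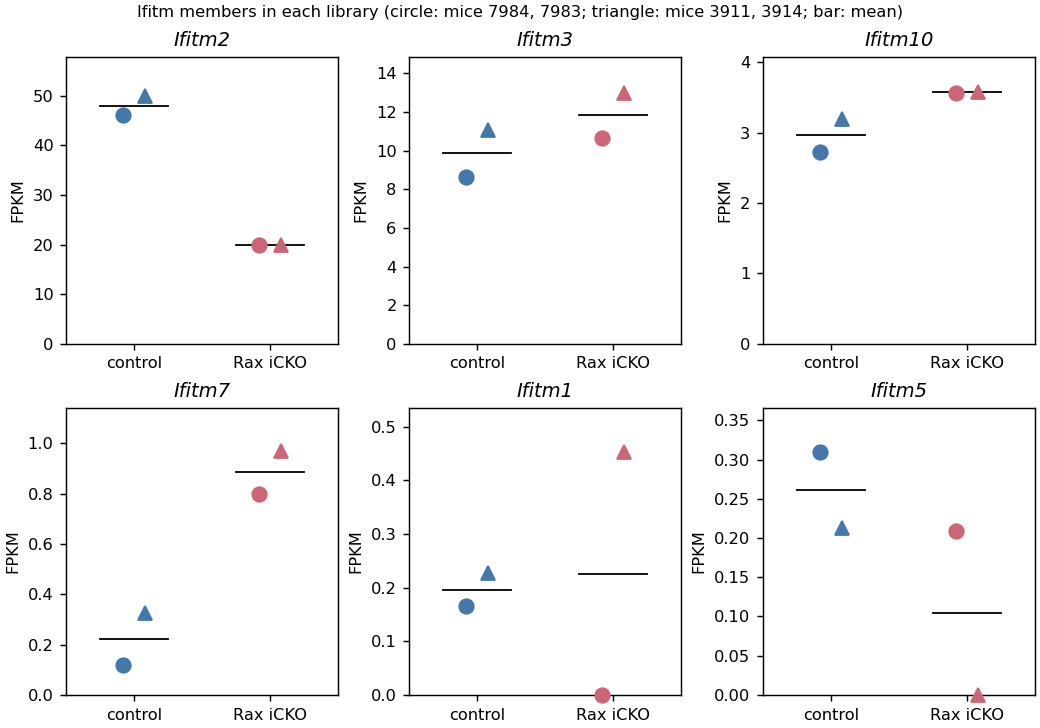
FPKM (vertical axes, linear, each from 0) of the 6 *Ifitm* members detected, in control and *Rax* iCKO libraries; each point is 1 mouse, circles and triangles mark mice close in number, and bars are group means. *Ifitm2* was at 46.1 and 49.9 FPKM in the controls and at 19.9 FPKM in both *Rax* iCKO libraries, whereas *Ifitm3* overlapped between groups.

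The other members were near the limit of detection. *Ifitm7* was at 0.118 and 0.325 FPKM in controls 7984 and 3911 and at 0.798 and 0.970 FPKM in *Rax* iCKO, with no overlap and a ratio of 3.99. These values fitted 1 and 2 reads in the controls and 5 and 6 in *Rax* iCKO at the least, and 2, 5, 12 and 15 by the length of its longest transcript. From the lowest numbers the read ratio was 4.30, with a 95% counting interval of 1.14 to 24.0. *Ifitm7* overlaps *Bmerb1* (listed as *2900011O08Rik*) on the opposite strand, and whether the counting used the strand is not given in the sources used here, so their reads cannot be told apart. *Bmerb1* was at 40.6, 60.3, 57.2 and 68.3 FPKM, far above *Ifitm7* in every library.

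*Ifitm5*, the bone-associated member, was at 0.309 and 0.212 FPKM in the controls and at 0.209 and 0 FPKM in *Rax* iCKO, which fitted 2, 1, 1 and 0 reads. *Ifitm1* was at 0.165 and 0.227 FPKM in the controls and at 0 and 0.452 FPKM in *Rax* iCKO, or 1, 1, 0 and 2 reads. *Ifitm6* was listed at 0 FPKM in all 4 libraries, which allows up to 3 reads in each, about 0.385 to 0.528 FPKM. At such numbers of reads a difference of *Ifitm1*, *Ifitm5* or *Ifitm6* between genotypes was not detectable.

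Of the 7 members, 6 were above 0 FPKM in at least 1 library and 3 reached the mean of 1 FPKM required for the fit. Among these 3, 1 was lower in *Rax* iCKO without overlap and 1 higher, where 14.1% of the 12363 genes at this level were lower and 15.4% higher. Counting every gene above 0 FPKM, 2 of the 6 members were lower and 2 higher, beside 14.5% and 13.7% of the 17865 genes. The lower pair was *Ifitm2* and *Ifitm5*, and the higher pair *Ifitm7* and *Ifitm10*. *Ifitm5* had 1 fitted read in both control 3911 and *Rax* iCKO 7983, which differed in FPKM through the depth alone. A level lower without overlap, at or under the ratio of *Ifitm2*, was seen in 38 genes, 0.307% of those tested. The difference between genotypes chose the family, so nothing is read from these shares. Bulk libraries cannot tell fewer *Ifitm2*-expressing cells from less *Ifitm2* RNA per cell.

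*Ifitm2* was above *Ifitm3*, and *Ifitm3* above *Ifitm10*, in every library, and the other members were below *Ifitm10*. The ranges of these 3 over the libraries were separate, and the mean differences between neighbors in this order were 1.45 ± 0.86 and 1.47 ± 0.12 on the log2(FPKM + 1) scale (SD, n = 4). The order was read from these same libraries and is a description with no test. *Ifitm1*, *Ifitm5*, *Ifitm6* and *Ifitm7* could not be ordered among themselves, and *Ifitm7* was below *Ifitm1* and *Ifitm5* in control 7984 and above them in the other libraries.

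The family as a whole was lower in *Rax* iCKO through *Ifitm2*. The summed level of the members was 58.1 and 64.9 FPKM in the controls and 35.2 and 37.9 FPKM in *Rax* iCKO. *Ifitm2* made up 79.5% and 76.8% of this sum in the controls and 56.6% and 52.6% in *Rax* iCKO. *Ifitm3* made up 14.8% and 17.1% in the controls and 30.4% and 34.2% in *Rax* iCKO. Within a library the ratio of *Ifitm2* to *Ifitm3* does not depend on how the library was scaled, and it was 5.35 and 4.49 in the controls and 1.87 and 1.54 in *Rax* iCKO.

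**Figure D2:**
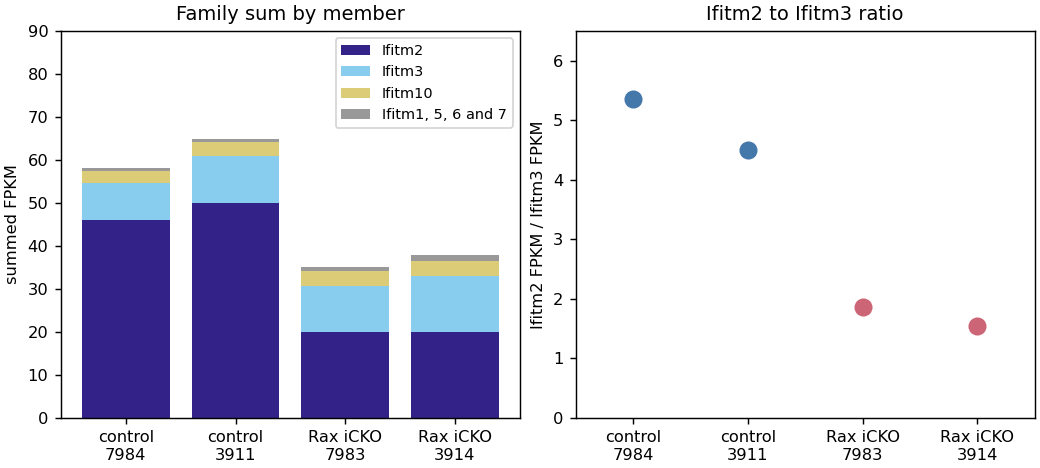
Left, summed FPKM of the members in each library, stacked by member; right, the ratio of *Ifitm2* FPKM to *Ifitm3* FPKM in each library. The *Ifitm2* part of the bar shrinks in both *Rax* iCKO libraries while the *Ifitm3* part does not, and the ratio goes from 5.35 and 4.49 to 1.87 and 1.54.

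Reads can be shared between members and near-identical copies. The transcripts of *Ifitm2* and *Ifitm3* were 76.4% identical over 618 aligned bases, and no window of the read length in one matched the other with up to 2 mismatches. Of the 555 such windows in the *Ifitm2* transcript, 260 (46.8%) matched a transcript of another GENCODE gene, against 0 of 578 in *Ifitm3*. These were the processed pseudogenes *Gm11951*, *Gm2840*, *Gm45308* and *Gm8865* and the overlapping gene *Gm45717*, which runs from *Ifitm5* into *Ifitm2*. How shared reads were assigned is not given in the sources used here, and *Ifitm2* is uncertain to that extent. For *Ifitm10*, 3.59% of windows were shared, all with *Gm49369*, which overlaps it.

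The genes around the members were compared to see whether they moved with *Ifitm2*. Within 250 kb of the 3 loci, 56 of 93 RefSeq genes were in the files and 27 had a mean of at least 1 FPKM. Of these 27, 5 were lower and 5 higher in *Rax* iCKO without overlap, where all genes gave 14.1% and 15.4%, and 0 had an unadjusted limma p under 0.05, beside 2.86% of all genes tested. Next to the cluster, *Pgghg* (listed as *Athl1*), an enzyme that releases glucose from collagen sugars, was at 21.7 and 12.3 FPKM in the controls and 15.1 and 8.97 FPKM in *Rax* iCKO, which overlapped. The inflammasome gene *Nlrp6* was listed at 0 in every library. On the other side, the glycosyltransferase *B4galnt4* was at 4.0 and 3.26 FPKM in the controls and 5.25 and 4.14 FPKM in *Rax* iCKO, a ratio of 1.29. The plakophilin *Pkp3* was above 0 only in *Rax* iCKO 7983, at 0.0401 FPKM. The lowest ratio among the 16 tested neighbors of the cluster was 0.675, for the proteasome subunit *Psmd13*, and the highest 2.24, for *Cyp2e1*, both named after their values were seen.

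Beside *Ifitm10*, the lysosomal protease *Ctsd* was at 523 and 471 FPKM in the controls and 463 and 427 FPKM in *Rax* iCKO, a ratio of 0.895 in the direction opposite to *Ifitm10*. *Syt8*, *Krtap5-4* and *Krtap5-1* were listed at 0. Beside *Ifitm7*, *Bmerb1*, *Mpv17l*, *Pdxdc1* and *Marf1* overlapped between genotypes, with ratios of 1.24, 1.19, 1.004 and 1.101.

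**Figure D3:**
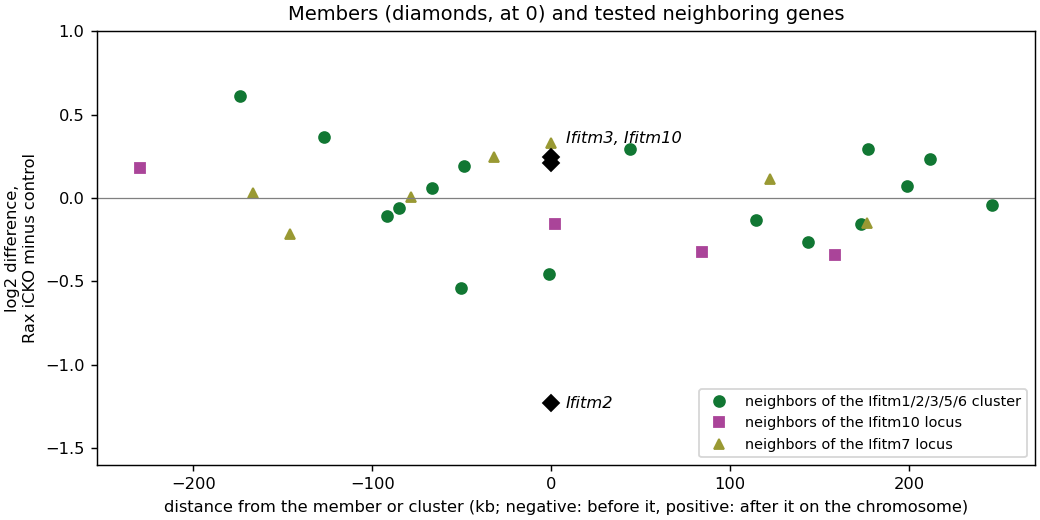
Log2 difference of *Rax* iCKO minus control on log2(FPKM + 1) (vertical axis) for the 27 tested genes within 250 kb of a member locus, against distance from that locus in kb (horizontal axis), with *Ifitm2*, *Ifitm3* and *Ifitm10* as diamonds at 0. *Ifitm2*, at -1.23, lies below every tested neighbor.

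The interferon pathway that induces *Ifitm1*, *Ifitm2* and *Ifitm3* was then described from a list of 19 receptor, kinase and transcription factor genes. *Ifnb1* and *Ifng*, the ligands listed, were at 0 FPKM in all libraries. Of the 15 genes tested, 2 were lower and 2 higher without overlap, beside 14.1% and 15.4% of all genes. The median log2 difference was 0.03, beside -0.0044 for all genes tested, and 0 passed limma at an unadjusted p under 0.05. The most abundant were the receptor chains *Ifngr1* and *Ifnar2* and the kinase *Jak1*, with ratios of 0.908, 0.902 and 1.06. The transcription factor *Stat2*, which carries the interferon signal to DNA, was on the higher side, at 5.31 and 3.98 FPKM in the controls and 5.86 and 6.45 FPKM in *Rax* iCKO. *Ifngr2* and the receptor chain *Il10rb* were lower, with ratios of 0.846 and 0.705. *Irf9*, a partner of *Stat2*, was at 6.48 and 5.28 FPKM in the controls and at 8.75 and 3.71 FPKM in *Rax* iCKO, which enclosed the controls.

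Other interferon-stimulated genes were lower more often than higher, none by as much as *Ifitm2* among those tested. Of 45 listed, 22 had a mean of at least 1 FPKM, and 8 of these (36.4%) were lower in *Rax* iCKO without overlap and 1 was higher, beside 14.1% and 15.4% of all genes. Their median log2 difference was -0.21. With limma, 0 passed at an adjusted p under 0.05, as against 0.0243% of all genes, and 1, *Psmb8*, at an unadjusted p under 0.05. *Psmb8*, an immunoproteasome subunit, was at 8.53 and 11.3 FPKM in the controls and 6.53 and 3.05 FPKM in *Rax* iCKO, a ratio of 0.483. It was the 1 gene of these 22 that was lower without overlap by over 1.5 times, as were 3.37% of all genes, and 0 of the 22 were higher without overlap by over 1.5 times, as were 3.41% of all genes.

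Of the 3 most abundant interferon-stimulated genes, 1 was lower without overlap. *B2m*, the light chain of MHC class I, was at 37.2 and 35.8 FPKM in the controls and 34.8 and 21.4 FPKM in *Rax* iCKO, a ratio of 0.771. *Ifi35* was at 15.7 and 16.6 against 12.8 and 16.0 FPKM, and *Ly6e* at 13.5 and 12.8 against 16.0 and 12.8 FPKM, and both overlapped. The others that were lower without overlap were *Psmb9*, *Ddx58*, *Trim21*, *Parp9*, *Irgm1* and *Cmpk2*, with ratios between 0.673 and 0.865, and the higher gene was *Eif2ak2*, with 1.39. *Rax* iCKO 3914, in which the microglial markers summed to 9.97 FPKM, was the lowest library for 6 of the 8 lower genes, and *Rax* iCKO 7983 for *Parp9* and *Irgm1*. Without mouse 3914, 11 of the 22 were lower and 5 higher, beside 31.3% and 29.7% of all genes. The part of microglial RNA in these values was not tested. *Ifitm2* was at 19.9 FPKM in both *Rax* iCKO libraries, whose microglial marker sums were 76.8 and 9.97 FPKM.

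Counting every listed gene above 0 FPKM, 16 of 44 were lower without overlap and 3 higher, beside 14.5% and 13.7% of all genes. The genes named below the mean of 1 FPKM were chosen after their values were seen. *Trim14*, an adaptor of antiviral signaling, was at 0.340 and 0.358 FPKM in the controls and at 0.0352 and 0.0357 FPKM in *Rax* iCKO. *Gbp2b*, a guanylate-binding protein, was at 0.449 and 0.370 FPKM against 0.0808 and 0.0819 FPKM. *Dhx58*, a relative of the RNA sensor *Ddx58*, was higher in *Rax* iCKO, at 0.0355 and 0.195 FPKM against 0.575 and 0.340 FPKM, and the RNA sensor *Oas2* was at 0.343 and 0.323 against 0.376 and 0.556 FPKM. The lowest fitting numbers of reads were 13, 10, 1 and 1 for *Trim14* and 15, 9, 2 and 2 for *Gbp2b*, in the order of controls 7984 and 3911 and *Rax* iCKO 7983 and 3914. Some of the lower genes below this mean rested on depth or on single reads. *Xaf1* had 26, 16, 16 and 9 reads in the same order, so control 3911 and *Rax* iCKO 7983 differed through the depth alone. *Ifi44* had 1, 1, 0 and 0 reads, and *Rsad2* had 2, 2, 1 and 0. The other lower genes below this mean were *Ifih1*, *Herc6* and *Samd9l*.

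Genes tied to IFITM proteins by structure or handling, and other genes that restrict viral entry, were read against the 14.1% of all genes lower and 15.4% higher without overlap. Of the 5 other CD225 genes tested, 0 were lower and 2 higher. *Prrt1*, which encodes a synaptic protein that binds AMPA receptors, was at 1.64 and 1.05 FPKM in the controls and 3.24 and 2.54 FPKM in *Rax* iCKO, a ratio of 2.15, with a limma p of 0.0497 unadjusted, the 1 of the 5 under 0.05, and 0.9999 adjusted. *Prrt2*, a presynaptic relative, was at 5.42 and 5.41 against 8.05 and 7.26 FPKM, a ratio of 1.41. *Syndig1* and *Tmem91* overlapped. Of 9 genes that modify or bind IFITM proteins, 0 were lower and 2 higher, with ratios of 0.871 to 1.21. These 9 included *Vapa*, the ubiquitin ligase *Nedd4* and the protease *Zmpste24*. The most abundant were *Vcp*, *Vapa* and *Nedd4*, with ratios of 1.06, 0.877 and 1.12. The 2 higher genes were *Nedd4* and the histone demethylase *Kdm1a*, whose ratio was 1.21. Of 6 tested genes that restrict viral entry by other means, 0 were lower and 1, *Serinc5*, was higher, at 20.7 and 17.9 FPKM in the controls and 24.5 and 22.9 FPKM in *Rax* iCKO. The most abundant of these were *Serinc3*, *Serinc5* and *March8*, with ratios of 1.06, 1.23 and 0.983.

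**Figure D4:**
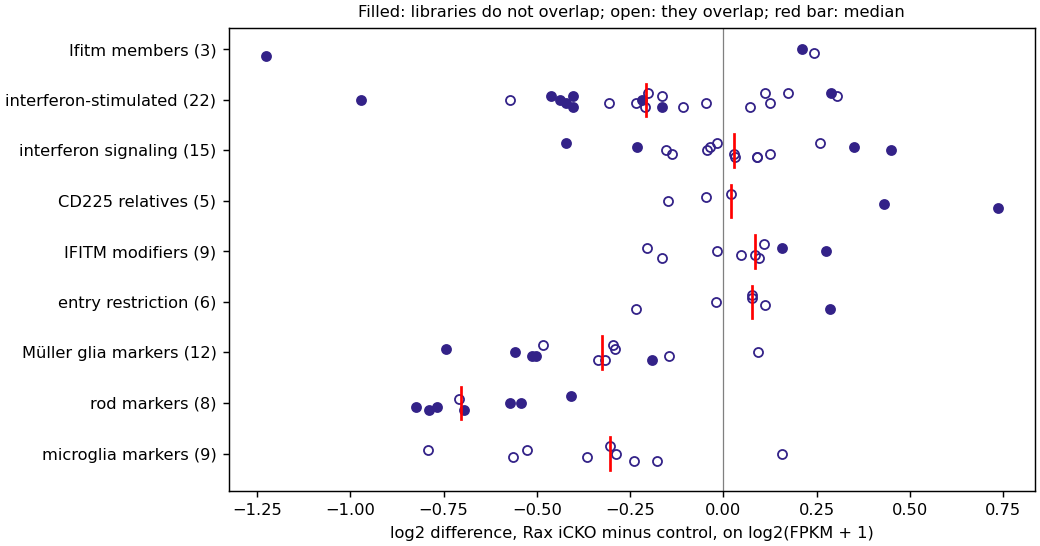
Log2 difference of *Rax* iCKO minus control on log2(FPKM + 1) (horizontal axis) for every tested gene of the lists shown, with the number of genes in brackets; filled points are genes whose libraries did not overlap between groups, open points overlapped, and red bars are list medians (none for the members). *Ifitm2*, at -1.23, lies below every other gene plotted, *Psmb8* is next among the interferon-stimulated genes, and the rod markers lie below 0.

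Several markers of the sorted cells and of rods were also lower in *Rax* iCKO. Of 12 Müller glial markers, 5 were lower without overlap and 0 higher, beside 14.1% and 15.4% of all genes, with a median log2 difference of -0.33. The most abundant, *Apoe*, *Car2* and *Rlbp1*, had ratios of 0.873, 0.677 and 0.597. *Rlbp1*, which encodes a retinaldehyde-binding protein and whose promoter drives Cre, was at 2616 and 2159 FPKM in the controls and 1292 and 1560 FPKM in *Rax* iCKO. Of 8 rod markers, 7 were lower and 0 higher, beside the same shares, with a median of -0.70 and ratios of 0.541 to 0.751, and 3 passed limma at an unadjusted p under 0.05, beside 2.86% of all genes. Among the abundant rod genes, *Sag* and *Gnat1*, which encode proteins of phototransduction, had ratios of 0.666 and 0.566, and *Cnga1* and *Rp1* were also lower without overlap by over 1.5 times, at 0.589 and 0.541. The rod markers summed to 1367 and 1345 FPKM in the controls and 913 and 791 FPKM in *Rax* iCKO, and those of Müller glia to 17906 and 13798 against 12010 and 12123 FPKM. Their part in the *Ifitm2* difference was not tested.

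Of the tested markers of other cell types, 1 was lower and 0 higher without overlap, beside 14.1% and 15.4% of all genes. Microglial, endothelial, pericyte, pigment epithelial and neutrophil markers had 0 tested genes without overlap, of 9, 4, 2, 1 and 3. The complement genes *C1qb*, *C1qc* and *C1qa* led the microglial markers, with ratios of 1.06, 0.885 and 1.03. The vascular growth factor receptors *Kdr* and *Flt1* and the secreted *Egfl7* led the endothelial markers, with ratios of 0.906, 0.923 and 0.829. Of 3 astrocyte markers 1, *Pdgfra*, was lower, with a ratio of 0.584, while *Aldoc* and *Gfap* overlapped, at 0.871 and 0.838. The pericyte genes *Pdgfrb*, *Vtn* and *Rgs5* had ratios of 0.952, 0.850 and 1.35, and the pigment cell genes *Ttr*, *Tyr* and *Pmel* had 1.93, 1.92 and 1.14. Below a mean of 1 FPKM, *Tyr* was higher without overlap, at 0.480 and 0.555 FPKM against 0.988 and 1.001 FPKM, as was *Tyrp1*, with a ratio of 3.16, and *Best1* was lower, with a ratio of 0.334. At the same low levels the tight-junction gene *Cldn5* of the endothelium was lower without overlap, at 0.711 and 1.77 FPKM against 0.261 and 0.530 FPKM. *Cdh5* and the astrocyte gene *Gja1* were also lower without overlap, with ratios of 0.444 and 0.689. *Cdh5* had 3 fitted reads in both control 3911 and *Rax* iCKO 7983, which differed in FPKM through the depth alone. Among all genes above 0 FPKM, 14.5% were lower and 13.7% higher without overlap. The part of these marker genes in the *Ifitm2* difference was not tested. Among endothelial markers *Cdh5*, *Tek* and *Tie1* were at most 0.235 FPKM and *Pecam1* at most 0.638 FPKM in every library, whereas *Kdr* was at 228 FPKM or more. Among astrocyte markers *Pax2* was at most 0.0381 FPKM and *Aldoc* at 443 FPKM or more. Which cells gave the *Kdr* and *Aldoc* RNA was not tested. The pericyte marker *Anpep* was at 0 in all libraries. *Rpe65* of the pigment epithelium was at 0, 0.131, 0.774 and 0 FPKM in the order above. Of the neutrophil list, *Lyz2* was at 7.61 and 6.92 FPKM in the controls and 21.7 and 4.39 FPKM in *Rax* iCKO. *S100a8* was at 15.7 FPKM in control 7984 and 0.556 FPKM in *Rax* iCKO 7983, and *S100a9* at 8.77 and 1.33 FPKM. Both were at 0 in mice 3911 and 3914. Neutrophil markers summed to 37.6 and 7.23 FPKM in the controls and 24.2 and 4.44 FPKM in *Rax* iCKO, and their part in any result was not tested.

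The genes nearest to *Ifitm2* in pattern were *Optc*, *Cebpd*, *Egr2*, *Ghrh* and *Ninj2*. Likeness was the Euclidean distance over the 4 libraries between values of log2(FPKM + 1) centered on each gene's mean, and it was 0.129 to 0.285 for these 5. *Optc*, an extracellular matrix protein of the eye, was at 3.51 and 4.42 FPKM in the controls and 1.07 and 0.994 FPKM in *Rax* iCKO. *Cebpd*, a C/EBP transcription factor, was at 23.2 and 30.6 against 10.95 and 9.80 FPKM. *Egr2*, *Ghrh* and *Ninj2* had ratios of 0.374, 0.398 and 0.400. The genes nearest to *Ifitm3* were *Inpp5f*, *Zcchc18*, *Atxn7l1*, *Fancm* and *Ccdc84*, at distances of 0.0270 to 0.0479, and their ratios were 1.20 to 1.30. With 4 libraries many genes can share a pattern, and how many do was not counted, so the distances are given as a description.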

How the data were processed

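RNA-seq was analysed from mTFP-positive cells of 2 control and 2 *Rax* iCKO mice, grouped by the genotype in the labels. Single-end reads were aligned by the authors to mm10, and FPKM per gene were deposited. The processing notes name TopHat2 2.1.1, Bowtie2 2.2.8, SAMtools 0.1.18 and Cuffdiff 2.2.1, the methods name Cufflinks and other versions, and the methods and labels differ in the RNA isolation kit. FPKM were used without further scaling.

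Differences were fitted with limma 3.58.1 (R 4.3.3, with a trend and Benjamini-Hochberg adjustment) on log2(FPKM + 1) for the 12363 genes whose mean reached 1 FPKM. A simulated set was checked first. The pseudocount shrinks the differences of low genes. No exact permutation test of single values is reported, since 2 mice against 2 cannot go below p = 0.333. Groups did not overlap where both *Rax* iCKO libraries lay beyond both controls.

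Relative depth came from the commonest ratio of low FPKM between libraries, and 90.4% of 2310 low genes fitted whole reads within 0.02 reads. The FPKM of 1 read was chosen gene by gene, trying up to 20 reads. The share that would fit in this way by accident was not computed. Mapped reads came from GENCODE transcript lengths less 200 bases. Read numbers are estimates. Counting intervals are exact, cover counting error only and no count test was run.

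The members and lists were chosen with earlier results of these data known. Genes named are the members, the 3 most abundant of each list and those non-overlapping by over 1.5 times, the 2 genes on either side of each locus, and the 5 nearest in pattern to *Ifitm2* and *Ifitm3*, and some that meet this rule are not reported here. Other list genes were named after their values were seen. Sequences are from RefSeq GRCm38.p6 and GENCODE. No protein sequence was used here. Alternatives were another pseudocount, filter or scaling, a block and leaving out each mouse.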

Additional observations from a re-analysis of the deposited data

How the results depend on the processing

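The log2 difference of *Ifitm2* was -1.26 with pseudocount 0.1, -1.22 with quantile normalization, -1.25 with equal medians and -1.28 to -1.17 with each mouse left out. *Ifitm3* and *Ifitm10* stayed on the higher side under these alternatives, at 0.079 to 0.41 and 0.12 to 0.30 with each mouse left out, so the size of both rests on single mice. Without a filter 2 members were lower and 2 higher without overlap. With a mean of at least 5 FPKM, or with quantile normalization, 0 were higher, and with each mouse left out 1 was lower and 1 to 2 were higher. Interferon-stimulated genes lower without overlap numbered 16 of 44 without a filter, 4 of 9 at a mean of at least 5 FPKM, and 11 to 16 of 22 with each mouse left out, the most without *Rax* iCKO 7983. Those higher numbered 3, 0 and 1 to 5 in the same order, the most without *Rax* iCKO 3914. With 3 libraries overlap is rarer, and 29.1% to 35.3% of all genes were lower and 29.7% to 35.0% higher. Limma called 3 genes in all, 0 without a filter and 0 at a mean of at least 5 FPKM (354 genes had an unadjusted p under 0.05 in the fit reported), 6 with equal medians and 15 to 20 with each mouse left out. With a replicate block for mice of the same number run it called 71. The numbers are no stated pairs, although the deviations of mice close in number correlated at r = 0.50 over genes, a value that is the same for both pairs by construction. The causes of these shifts were not tested. The depth leaves *Ifitm1*, *Ifitm5* and *Ifitm6* at about 0 to 3 reads per library.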
